A study of Mus musculus with 24 samples.

Results

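CD8+ T cells activated by their peptide for 72 h with a TLR2 agonist were compared with T cells activated by the peptide alone for the same time. The comparison takes the 4 libraries labelled TLR2 and 72 h and the 4 labelled OVA and 72 h, which are 8 of the 24 libraries of the series. All 8 came from OT-1 mice (stock 003831), a strain in which nearly all CD8+ T cells bear 1 transgenic receptor, specific for a peptide of ovalbumin. Whole splenocytes, with the antigen-presenting cells of the spleen still among them, were cultured with peptide at 2 µg/mL, and agonists were given 1 h ahead of the peptide. The labels name the agonist group only as TLR2. Of the agonists in the protocol, Pam3CSK4, used at 300 ng/mL, is the synthetic lipopeptide that acts on TLR2. The OVA group had the peptide without an agonist. T cells were then purified by immunomagnetic negative selection, and poly-A RNA was sequenced. The sources used here give neither the age and sex of the mice nor whether the replicates were separate mice or separate cultures. The p-values measure only the spread between these libraries, which may be technical. The series also holds TLR7 libraries at 72 h and libraries of all 3 treatments at 24 h.

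TLR2 is a cell-surface receptor for bacterial lipopeptides that pairs with TLR1 or TLR6 and signals through the adaptor MyD88 to NF-kB. On macrophages and dendritic cells it raises inflammatory cytokines and costimulatory ligands, and activated CD8 T cells can carry it as well. Because the agonist was added to whole splenocytes, RNA of the purified T cells can reflect the agonist acting on T cells or on the cells around them, and the design cannot tell these apart. Type I interferon, in contrast, acts through the receptor chains IFNAR1 and IFNAR2 and factors of the STAT and IRF families on a set of antiviral genes.

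The 8 libraries held 21.5 to 27.1 M (mega) counts each. Their T cell identity was clear, with Cd8a, the CD8 alpha chain, between 564 and 842 CPM (counts per mega counts of the library) in all 8. Xist, an RNA of female cells, was at 330 to 517 CPM and the Y-linked gene Eif2s3y at 17.6 to 84.3 CPM. Each of the 8 libraries therefore held RNA of both sexes, and the level of Eif2s3y differed between them. The groups were not evenly spread over the main axis of the data, however. On the first principal component of log2 CPM, which took 60.2% of the variance over all 24 libraries, most 24 h libraries stood at one end and most 72 h libraries at the other, while 8 lay around the middle of the range. These middle libraries were TLR2 72 h replicates 1, 3 and 4, OVA 72 h replicate 4, and 4 libraries labelled 24 h. TLR2 72 h replicate 4 was closest to a TLR7 24 h library, at a root-mean-square difference of 0.13 in log2 CPM over 8762 genes. Replicate 1 was closest to an OVA 24 h library, at 0.14. Within their own group the nearest library stood at 0.22 from replicate 4 and at 0.19 from replicate 1. For TLR2 72 h replicate 2 that distance was 0.63. OVA 72 h replicate 4 was closest to a TLR7 24 h library, at 0.29, and stood at 0.63 from the nearest library of its own group. In this respect the libraries labelled TLR2 72 h replicates 1 and 4 and OVA 72 h replicate 4 go against their labels. TLR2 72 h replicate 2 and OVA 72 h replicates 1 and 2 were also closer to a 72 h library of another treatment than to their own group. The labels were kept as given, and whether tubes or labels had been exchanged was not tested, so every TLR2 and OVA value below rests on labels that may be in doubt.

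**Figure D1:**
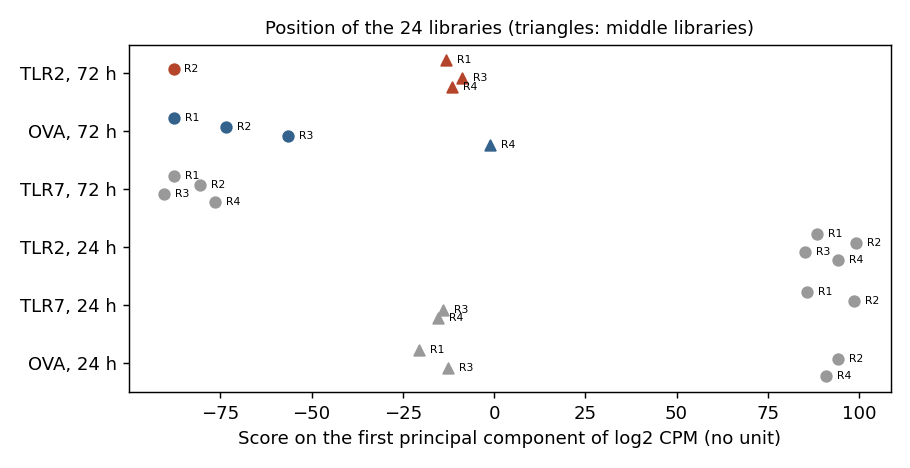
Score of each of the 24 libraries on the first principal component (x axis, no unit) by labelled group (y axis). Triangles are the 8 middle libraries and circles the others. TLR2 at 72 h has 3 middle libraries and OVA at 72 h has 1.

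So the TLR2 group was mostly of one kind and the OVA group mostly of the other. The gene lists and the main genes are therefore given over all 8 libraries and also within each kind. Among the middle libraries, TLR2 replicates 1, 3 and 4 stand against OVA replicate 4. Among the others, TLR2 replicate 2 stands against OVA replicates 1 to 3. Each of these rests on 1 library in one group, for which the model takes the spread of the remaining libraries.

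No gene of the 14560 tested passed an adjusted p of 0.05 in edgeR's quasi-likelihood test of TLR2 against OVA at 72 h, which is 0% called. At an unadjusted p under 0.05 there were 625 genes higher in TLR2 (4.29%) and 1068 lower (7.34%). The 4 TLR2 libraries lay wholly above the 4 OVA libraries for 191 genes (1.31%) and wholly below them for 482 (3.31%). DESeq2 called 82 genes, 27 higher and 55 lower. The genes below are therefore described by their values, and none of them is a call of the edgeR test. Some were picked because the groups did not overlap, others because they differed in both kinds of library. For such genes these traits follow from the choice and are a description only. Across all genes tested, the median log2 fold change was -0.04.

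Among the lists of T cell genes, type I interferon genes had the lowest median in the TLR2 cultures. Of its 35 genes tested, 31 had a negative log2 fold change, 24 had an unadjusted p under 0.05 with TLR2 lower and 0 with TLR2 higher, and 18 lay wholly below OVA. The median log2 fold change of the list was -0.89. It was -0.66 among the middle libraries and -1.46 among the others, and 31 of the 35 genes were negative in both kinds. Of all 14560 genes tested, 5038 were negative in both kinds and 3680 positive in both, the background for such counts here and below.

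Irf7, the factor that amplifies interferon production (GRCm38 chr7:141262706-141266481), had 9.81, 7.16, 4.90 and 8.63 CPM in TLR2 replicates 1 to 4, against 32.6, 28.7, 46.4 and 19.8 CPM in OVA replicates 1 to 4. The highest TLR2 library was below the lowest OVA library. Its log2 fold change was -2.06 ± 0.52 (SE), with an adjusted p of 0.191 in edgeR, and it was -1.35 among the middle libraries and -2.33 among the others.

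Cmpk2, a mitochondrial nucleotide kinase induced by interferon, had 3.15, 2.53, 1.47 and 2.16 CPM with TLR2, against 8.29, 10.1, 6.23 and 7.37 CPM with OVA. These values did not overlap, and the log2 fold change was -1.70 in each kind of library. Isg15, a ubiquitin-like protein attached to other proteins during antiviral responses, had 4.29, 1.19, 2.73 and 9.32 CPM in TLR2 libraries, against 18.9, 15.5, 14.3 and 18.4 CPM in OVA libraries. Usp18, which removes ISG15 and dampens interferon receptor signalling, had 2.04, 0.689, 1.08 and 4.79 CPM, against 11.1, 11.5, 9.15 and 9.24 CPM. In both, TLR2 replicate 4 was nearest to the OVA libraries and replicate 2 was farthest. Mx1, an antiviral GTPase, averaged 1.43 ± 0.56 CPM with TLR2 and 5.68 ± 1.00 CPM with OVA (SD, n = 4 each).

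Ifnar1, a chain of the type I interferon receptor, was lower without overlap, at 70.7 to 113 CPM in TLR2 libraries against 117 to 183 CPM in OVA libraries. Not all of the list was lower. Ifi204, an interferon-inducible DNA sensor, had its highest value of the 8 libraries in TLR2 replicate 4, at 3.77 CPM, and its log2 fold change over all 8 was 0.86.

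**Figure D2:**
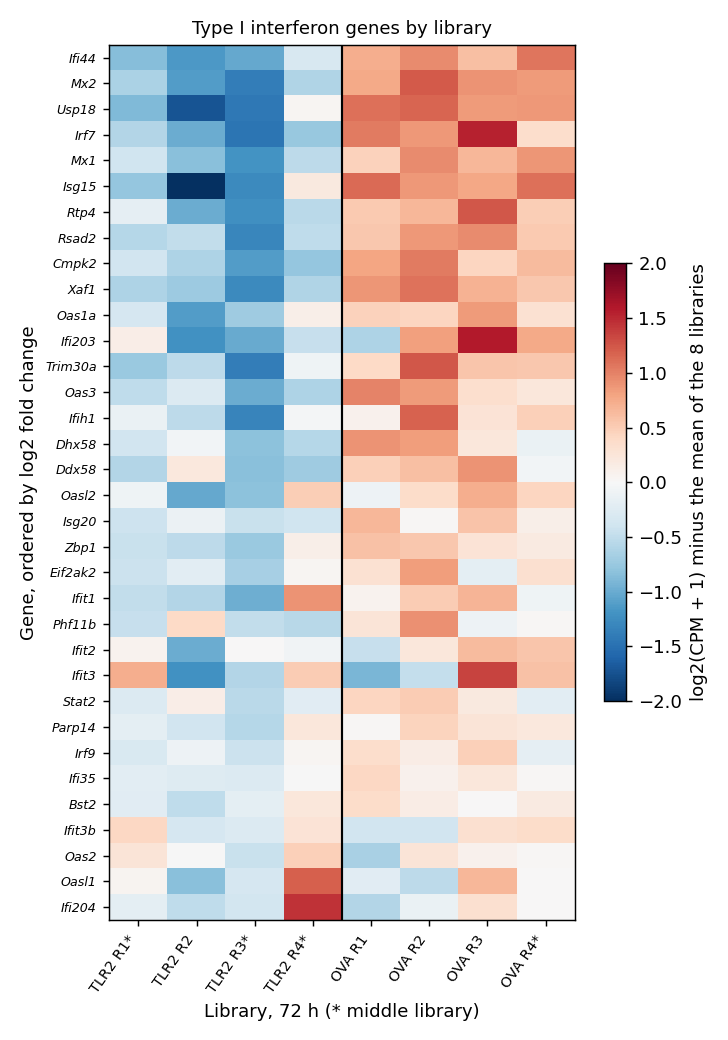
Heat map of 34 of the 35 type I interferon genes tested (rows, from the lowest log2 fold change at the top) in the 4 TLR2 and the 4 OVA libraries at 72 h (columns; an asterisk marks a middle library). Colour gives log2(CPM + 1) minus the mean of the 8 libraries, so blue is low and red is high. From Ifi44 to Xaf1 the TLR2 columns are blue, apart from Usp18 and Isg15 in TLR2 replicate 4, and the OVA columns red, while the lowest rows are mixed.

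Genes outside that list that are known to respond to interferon were also among those with the smallest p. Ifi27l2a, an interferon-induced mitochondrial protein (chr12:103442167-103443680), had 44.8, 30.7, 19.1 and 36.2 CPM with TLR2, against 232, 291, 227 and 225 CPM with OVA. Its log2 fold change was -2.90 ± 0.69 (adjusted p of 0.191 in edgeR), close to the same in the middle libraries (-2.75) and the others (-3.03). Trim25, a ubiquitin ligase of the RIG-I pathway, had 111, 114, 96.0 and 105 CPM in TLR2 libraries, against 142, 204, 193 and 154 CPM in OVA libraries. Ube2l6, the enzyme that carries ISG15, averaged 2.99 ± 0.61 CPM, against 9.83 ± 2.57 CPM. Pyhin1, Gbp10 and Slfn1, all of interferon-induced families, had log2 fold changes of -1.59, -1.83 and -1.42 and no overlap between the groups. Ifi27l2a, Gbp10 and Slfn1 have close paralogs, so their counts depend on how shared reads were assigned.

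The promoters of these genes are shown because interferon-stimulated genes are known to carry sites for STAT and IRF factors. In the RefSeq promoters (250 bases before to 50 after the start, build GRCm38.p6), the core GAAANNGAAA was searched on both strands, where it reads TTTCNNTTTC on the reverse strand. It stood in 15 of the 25 list genes matched by symbol (60.0%) and in 6 of the 12 matched among the 18 that lay wholly below OVA (50.0%). By comparison, 3.99% of the 27025 genes of the table held it. The stretches of 3 of them follow, written 5′ to 3′ along the gene with the motif in capitals; where matches overlap, the capitals join them.
Isg15, minus strand of chr4:156200845-156200926: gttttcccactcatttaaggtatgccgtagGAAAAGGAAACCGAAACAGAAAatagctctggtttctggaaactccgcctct
Oas1a, minus strand of chr5:120907500-120907575: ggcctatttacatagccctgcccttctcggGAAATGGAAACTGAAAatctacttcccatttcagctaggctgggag
Oas3, minus strand of chr5:120777695-120777764: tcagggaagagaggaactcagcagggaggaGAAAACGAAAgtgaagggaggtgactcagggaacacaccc
Isg15 had 3 overlapping matches, Oas1a had 2 and Oas3 had 1. A match is a description of the letters only, and binding was not measured.

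Genes of cell division were lower as well. All 32 G2/M and mitosis genes tested had a negative log2 fold change, 17 with an unadjusted p under 0.05, and 9 lay wholly below OVA. Their median was -0.76, with -0.90 among the middle libraries and -0.51 among the others. Ccnf, cyclin F, had 15.3, 15.5, 13.3 and 12.2 CPM in TLR2 libraries, against 28.6, 30.9, 20.8 and 33.2 CPM in OVA libraries, a log2 fold change of -1.01 ± 0.25 (adjusted p of 0.191 in edgeR). Aurka, the mitotic spindle kinase, had 23.1, 31.8, 21.7 and 26.6 CPM, against 52.4, 56.3, 36.2 and 40.0 CPM. Top2a, the topoisomerase that untangles chromosomes, averaged 458 ± 54.7 CPM with TLR2 and 782 ± 268 CPM with OVA, and the ranges overlapped, with OVA replicate 3 at 490 CPM.

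For genes of G1/S and DNA replication the values differed by the kind of library. Over all 8 libraries the median of the 34 genes was 0.05, with 19 positive and 15 negative. Within each kind, all 34 were negative, with a median of -0.48 among the middle libraries and -0.62 among the others. Ung, a uracil-DNA glycosylase of S phase, had 74.2, 7.04, 84.7 and 55.2 CPM with TLR2, against 17.5, 11.9, 9.56 and 75.3 CPM with OVA. It was high in the 4 middle libraries of both treatments and low in the others.

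Ribosome biogenesis ran the other way. All 30 genes tested were positive over the 8 libraries, with a median of 0.75 and 19 at an unadjusted p under 0.05, yet none had groups that did not overlap. Gnl3, a nucleolar GTPase, had 223, 85.1, 271 and 306 CPM in TLR2 libraries, against 87.7, 68.9, 53.3 and 224 CPM in OVA libraries. The high values were the middle libraries of both treatments. Within the kinds the median of the list was 0.14 and 0.09. The 20 hypoxia genes, targets of HIF factors that are known from low oxygen and high glycolysis, had a median of -0.06 over all 8 libraries, but 0.54 among the middle libraries and 0.41 among the others, with 18 positive in both kinds.

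**Figure D3:**
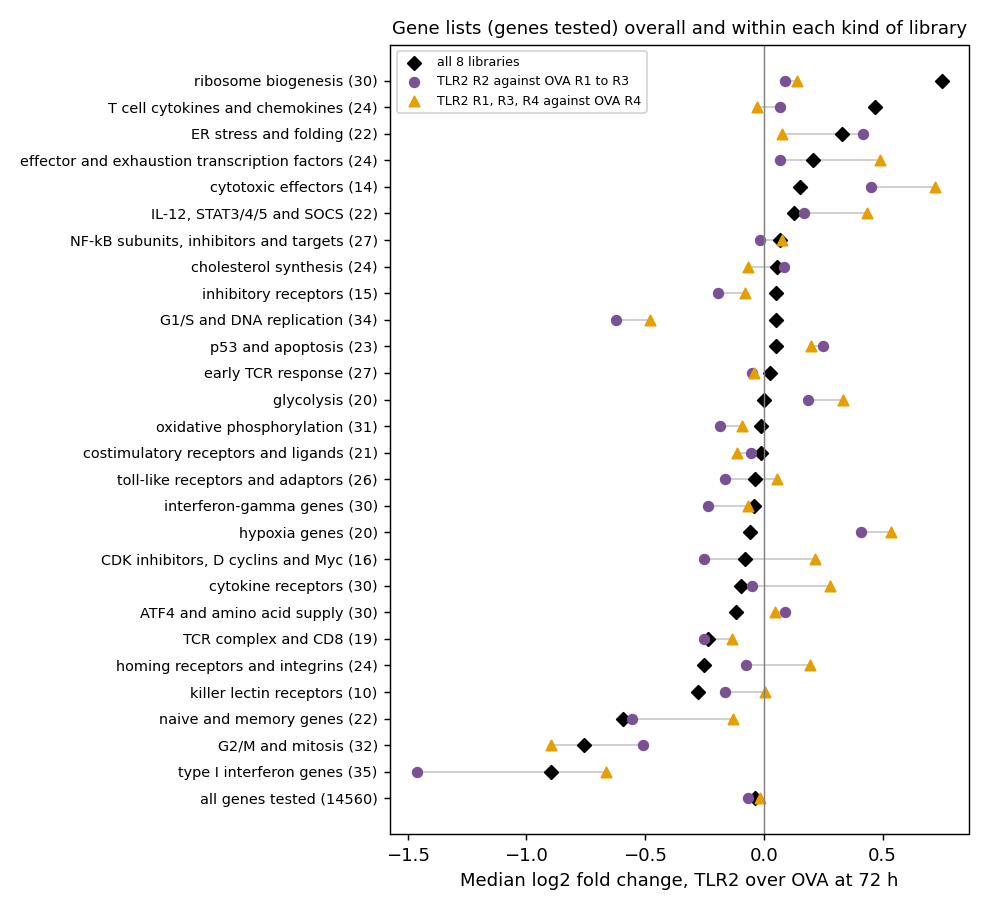
Median log2 fold change of TLR2 over OVA at 72 h (x axis) for each list of T cell genes and for all genes tested (y axis, with the number tested). Diamonds are all 8 libraries, triangles the middle libraries and circles the others. The type I interferon and G2/M lists lie left of 0 for all 3 symbols, whereas for ribosome biogenesis only the diamond lies far from 0, and for G1/S the triangle and circle lie left of the diamond.

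The T cell receptor complex and its kinases were slightly lower. The summed level of 19 such genes was 8230, 8484, 7789 and 7721 CPM in TLR2 libraries, against 9520, 9492, 9903 and 8784 CPM in OVA libraries. The groups did not overlap, and the median log2 fold change of the list was -0.23, with -0.13 among the middle libraries and -0.25 among the others. The 2-sided exact permutation p of the sum was 0.0286, the smallest that 4 against 4 can give. Adjusted over the 13 marker sums compared it was 0.186, and with the library scaling of DESeq2 the unadjusted exact p became 0.0571. Cd3e, a signalling chain of the receptor, had 168 to 214 CPM with TLR2, against 241 to 321 CPM with OVA. In bulk RNA of this kind, fewer cells of a type and less RNA per cell cannot be told apart.

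Pdcd1, the gene of PD-1, a receptor that restrains T cells (chr1:94038305-94052553), had 104, 67.5, 62.7 and 60.0 CPM in TLR2 libraries, against 147, 203, 123 and 190 CPM in OVA libraries. All 4 TLR2 values were below all 4 OVA values. The log2 fold change was -1.17 ± 0.41 with an adjusted p of 0.334 in edgeR, and it was -1.34 among the middle libraries and -1.22 among the others. The inhibitory receptors did not share 1 direction. Of the 15 tested, 8 were positive and 7 negative, with a median of 0.05, and it was -0.08 among the middle libraries and -0.19 among the others. Havcr2, which encodes TIM-3, was low throughout, at 1.21 to 3.18 CPM with TLR2 against 0.638 to 1.09 CPM with OVA. Cd101 was lower without overlap, at 1.68 to 2.98 CPM with TLR2 against 4.71 to 8.24 CPM with OVA.

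Of the 21 costimulatory genes tested, 10 were positive and 11 negative, 0 lay wholly above OVA and 1 wholly below. Their median was -0.01, with -0.11 among the middle libraries and -0.06 among the others. The 4 with an unadjusted p under 0.05 were all higher in TLR2. Cd28, the main costimulatory receptor of naive T cells, averaged 457 ± 79.5 CPM with TLR2 and 323 ± 73.0 CPM with OVA. Icos, its inducible relative, had 293, 601, 416 and 466 CPM, against 467, 197, 119 and 151 CPM, so OVA replicate 1 stood within the TLR2 range. Cd274, the PD-1 ligand PD-L1, had 66.6 to 97.0 CPM, against 37.7 to 79.5 CPM, with a log2 fold change of 0.73 among the others and 0.02 among the middle libraries.

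Ccr6, a chemokine receptor for CCL20, had 6.13, 4.32, 3.47 and 5.01 CPM with TLR2, against 18.7, 38.0, 19.3 and 27.2 CPM with OVA. Igfbp7, a secreted growth factor binding protein, had 1.13 to 1.96 CPM, against 9.30 to 19.9 CPM. Their log2 fold changes were -2.45 ± 0.96 and -3.42 ± 1.05, with much the same size in each kind of library, and their adjusted p in edgeR was 0.371 and 0.276. Both genes were picked for a difference in both kinds of library, so the shared direction follows from that choice. Spp1, which encodes osteopontin, had 0.475 to 0.957 CPM, against 1.99 to 4.01 CPM. Wisp1, a matricellular protein of the WNT pathway, averaged 1.43 ± 0.32 CPM, against 6.60 ± 3.43 CPM. Dapl1, a gene of naive and memory CD8 T cells, had 23.8 to 36.0 CPM, against 56.5 to 151 CPM.

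Of the genes that stood higher with TLR2, Slc19a2, a thiamine transporter (chr1:164249046-164265385), had the smallest p of the whole comparison. It had 33.5, 44.5, 35.0 and 40.9 CPM in TLR2 libraries, against 19.8, 21.3, 16.0 and 24.7 CPM in OVA libraries. The log2 fold change was 0.91 ± 0.17 and the adjusted p 0.130 in edgeR. It was 0.56 among the middle libraries and 1.23 among the others.

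Ifng, the gene of the effector cytokine interferon-gamma (chr10:118441046-118445892) had 56.6, 57.6, 248 and 217 CPM in TLR2 libraries, against 35.9, 17.6, 8.56 and 47.5 CPM in OVA libraries. TLR2 replicates 3 and 4 were several times as high as replicates 1 and 2, and the lowest TLR2 value was only just above the highest OVA value. The log2 fold change was 2.40 ± 0.58, with an adjusted p of 0.191 in edgeR, and it was 1.87 among the middle libraries and 1.48 among the others. The 30 interferon-gamma response genes did not follow as a group, with a median of -0.04, which was -0.07 among the middle libraries and -0.24 among the others. Of these, Cxcl10, a chemokine for CXCR3, had 9.44, 0.957, 16.1 and 19.3 CPM, against 1.26, 1.31, 2.37 and 5.46 CPM, so it was high in the 3 middle TLR2 libraries and not in replicate 2.

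Il21, a cytokine for B cells and CD8 T cells, had 2.66, 11.0, 26.8 and 56.9 CPM with TLR2, against 6.06, 0, 0.273 and 0.0797 CPM with OVA, and OVA replicate 1 exceeded the lowest TLR2 library. Il17f, a cytokine of type 17 responses, had 0.368 to 2.04 CPM, against 0.0842 to 0.364 CPM. Il1r1, the signalling receptor for IL-1, had 0.490, 0.689, 1.95 and 2.01 CPM, against 0.210, 0, 0.0910 and 0.120 CPM. Il1r2, the IL-1 decoy receptor, had 12.1, 44.8, 19.5 and 14.3 CPM, against 9.05, 5.24, 3.00 and 1.71 CPM. In both IL-1 receptor genes all TLR2 libraries were above all OVA libraries. The OVA values of Il1r1 rest on very few counts, since 3 counts are about 0.12 to 0.14 CPM in these libraries. The same holds for the lowest OVA values of Il17f and Il21. The adjusted p of Il1r1 was 0.130 and that of Il1r2 0.375 in edgeR.

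The NF-kB list as a whole was near the background, with a median of 0.07 and 15 of 27 genes positive, and it was 0.08 among the middle libraries and -0.01 among the others. Nfkbiz, an inducible nuclear IkB protein that directs IL-6 and IL-17 type genes, had 48.0, 68.8, 72.7 and 92.5 CPM in TLR2 libraries, against 27.9, 33.5, 47.6 and 33.1 CPM in OVA libraries. Its lowest TLR2 value, in replicate 1, was almost equal to the highest OVA value, in replicate 3. The log2 fold change was 0.99 ± 0.27 (adjusted p of 0.209 in edgeR), with 1.10 among the middle libraries and 0.92 among the others. Cflar, the inhibitor of death receptor signalling c-FLIP, had 119 to 190 CPM, against 73.1 to 107 CPM. The receptor itself was low in these libraries, with Tlr2 at 2.19 to 3.25 CPM in TLR2 libraries. It had 9.28 CPM in OVA replicate 3 and 1.73 to 3.08 CPM in the remaining OVA libraries. Its partner Tlr1 had 5.67 to 6.33 CPM with TLR2, against 12.7 CPM in OVA replicate 3 and 6.99 to 8.85 CPM in the remaining OVA libraries. OVA replicate 3 also had the highest macrophage marker sum, as described below. Tlr2 is given because it is the receptor of the agonist and was not picked by the rule for named genes.

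Protein folding genes of the endoplasmic reticulum were higher in part. Of 22 tested, 7 had an unadjusted p under 0.05 with TLR2 higher, 3 lay wholly above OVA, and the median was 0.33. It was 0.08 among the middle libraries and 0.42 among the others. Hspa5, the chaperone BiP, had 993, 1046, 1186 and 1089 CPM in TLR2 libraries, against 603, 574, 491 and 890 CPM in OVA libraries, and the OVA library nearest to TLR2 was the middle one. Accordingly its log2 fold change of 0.75 ± 0.20 was 0.29 among the middle libraries and 0.91 among the others. Atf6, a sensor of unfolded protein, had 92.0 to 137 CPM, against 46.9 to 82.9 CPM.

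Further genes named by the rule had higher values in TLR2 libraries. Ahr, the aryl hydrocarbon receptor, had 7.40, 6.81, 13.4 and 15.5 CPM with TLR2, against 1.77, 2.15, 4.64 and 5.10 CPM with OVA, and its log2 fold change was 1.25 to 1.26 in either kind of library. Cxcr6, a chemokine receptor of effector and tissue T cells, had 21.5, 40.1, 22.4 and 18.8 CPM, against 10.9, 10.3, 8.65 and 11.8 CPM. Serpinb9, which protects killer cells from their own granzyme B, had 269, 301, 376 and 570 CPM, against 168, 210, 64.5 and 223 CPM. Zeb2, a factor of terminal effector cells, averaged 19.2 ± 1.82 CPM, against 11.6 ± 1.60 CPM. Gzmc, a granzyme, had 1.72 to 3.77 CPM, against 0.638 to 1.60 CPM, and Tnfsf10, the death ligand TRAIL, had 20.6 to 26.8 CPM, against 11.1 to 19.6 CPM. The 14 cytotoxic genes had a median of 0.15, with 3 wholly above OVA and 0 wholly below. Within the kinds their median was larger, at 0.72 among the middle libraries and 0.45 among the others, with 9 positive and 2 negative in both kinds. The 24 homing receptors and integrins, which include Cxcr6, had a median of -0.25, with 0.20 among the middle libraries and -0.07 among the others.

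Etv6, Zak, Zmat3, Errfi1, Cnn3 and Ncs1 were also among the genes of smallest p on the higher side, with log2 fold changes between 0.59 and 1.41 and no overlap. Etv6, an ETS repressor, had 109, 134, 153 and 182 CPM, against 92.3, 90.8, 86.2 and 91.5 CPM. Zmat3 is a p53 target, and so is Tnfrsf10b, a TRAIL receptor at 19.9 to 26.1 CPM with TLR2 against 13.1 to 17.7 CPM with OVA. The 23 p53 and apoptosis genes had a median of 0.05, with 0.20 among the middle libraries and 0.25 among the others.

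**Figure D4:**
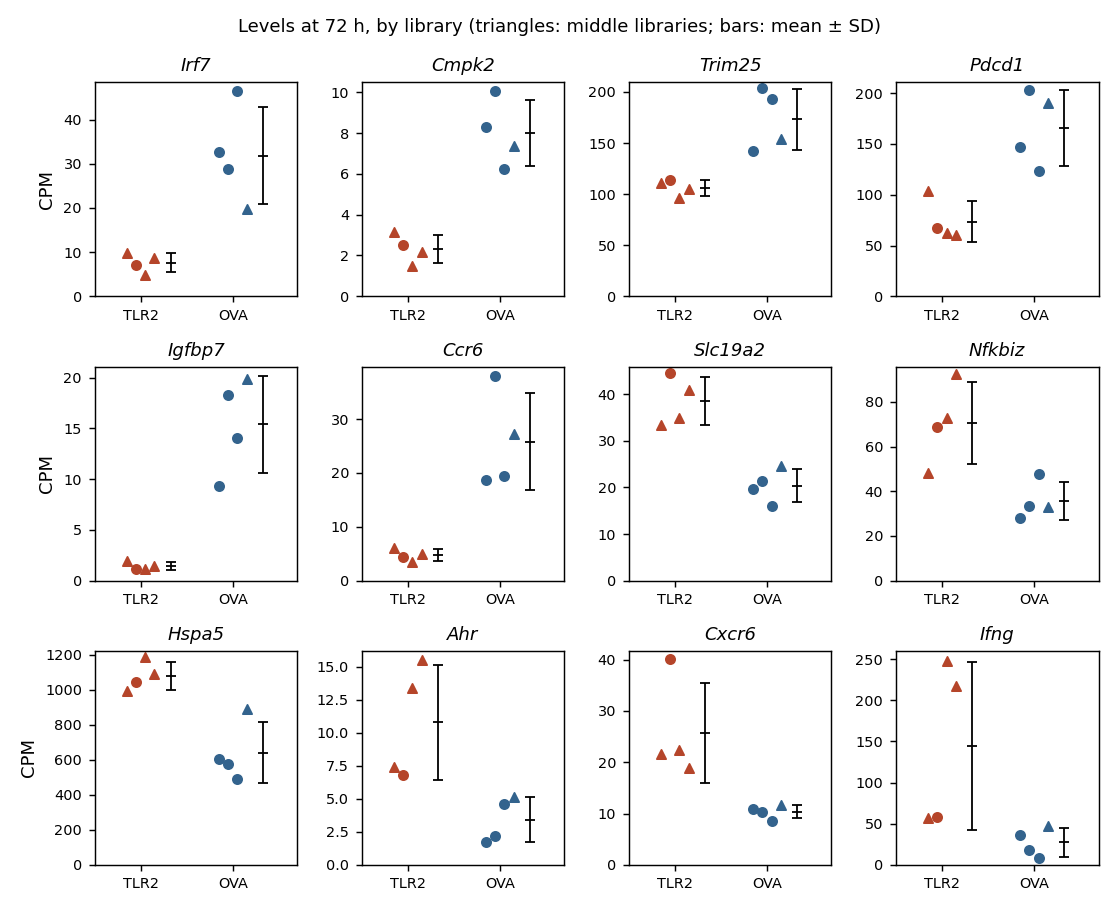
CPM (y axis, from 0) of 12 genes in the 4 TLR2 libraries (left in each panel) and the 4 OVA libraries (right) at 72 h. Triangles are middle libraries, circles the others, and bars the mean ± SD (n = 4). In all 12 panels the groups do not overlap, with the narrowest gaps in Nfkbiz and Ifng. The panels were chosen from the named genes. Trim25, Cmpk2, Slc19a2, Nfkbiz, Hspa5, Ahr, Cxcr6 and Ifng were named by a rule that requires no overlap. Over all genes tested, 1.31% lay wholly above OVA and 3.31% wholly below.

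OVA replicate 3 stood apart within its own group. Klf2, a factor of quiescent T cells, had 6.84 to 14.7 CPM in TLR2 libraries, against 344 CPM in OVA replicate 3 and 7.65 to 12.4 CPM in the remaining OVA libraries. S1pr1, the receptor for exit from lymphoid organs, had 30.2 to 58.9 CPM, against 565 CPM in OVA replicate 3 and 15.8 to 42.9 CPM in the remaining ones. Without that library the log2 fold change of Klf2 was 0.08 in place of -3.23 and that of S1pr1 0.42 in place of -2.06. Txnip, a redox regulator that is high in resting cells, had 87.4 to 114 CPM with TLR2, against 246, 198, 914 and 146 CPM with OVA. The 22 naive and memory genes had a median of -0.59, which was -0.13 among the middle libraries, where OVA replicate 3 has no part.

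The same OVA library had the highest sums of macrophage, neutrophil, B cell and plasma cell markers. The summed macrophage and monocyte markers (22 genes) were 16.0 to 40.9 CPM in TLR2 libraries, against 149 CPM in OVA replicate 3 and 16.1 to 30.4 CPM in the remaining OVA libraries. Lyz2, a macrophage lysozyme, was at 0.0765 to 4.78 CPM, against 26.4 CPM in OVA replicate 3 and 0.0422 to 4.58 CPM in the others. The summed B cell markers (22 genes) were 379 to 698 CPM, against 520 to 910 CPM (2-sided exact permutation p of 0.200). Neutrophil markers summed to at most 15.2 CPM with TLR2 and at most 46.1 CPM with OVA. None of these macrophage, B cell or neutrophil markers was at 0 in all 8 libraries. Stromal and endothelial markers summed to 21.7 to 27.8 CPM, against 33.5 to 134 CPM (2-sided exact permutation p of 0.0286, or 0.186 adjusted over the 13 sums). Most of that sum was Pecam1, which T cells also express, and 4 of the 15 genes were at 0 in all 8 libraries. The type I interferon median was -0.83 without OVA replicate 3, and the part of other cells in the remaining results was not tested.

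**Figure D5:**
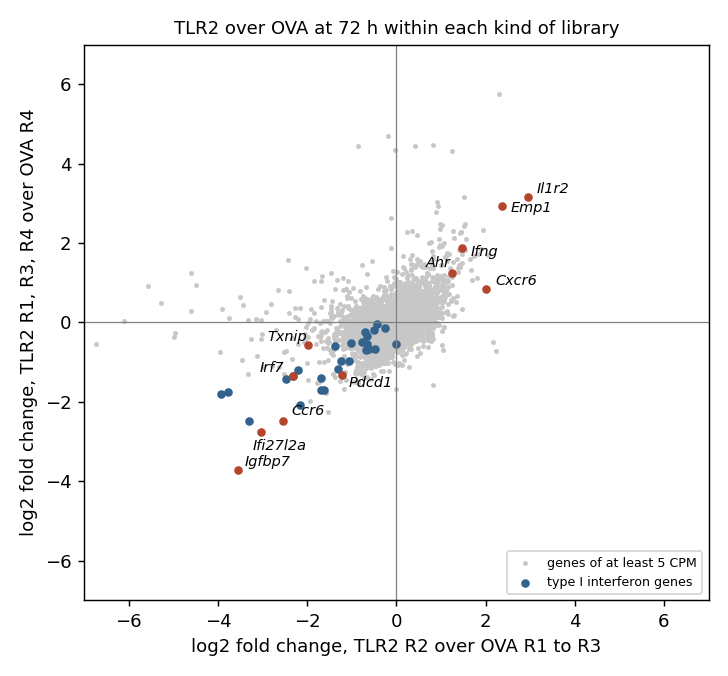
log2 fold change of TLR2 over OVA at 72 h among the other libraries (x axis) and among the middle libraries (y axis), for the 9947 genes that averaged 5 CPM or more in one of the groups, of which 8 lie beyond the axes. The 2 axes share no library. Type I interferon genes (blue) and Igfbp7, Ccr6 and Pdcd1 lie at lower left, and Il1r2, Emp1, Ifng, Ahr and Cxcr6 at upper right. Igfbp7, Ccr6, Ifi27l2a, Il1r2 and Emp1 were picked for a difference in both kinds of library, so their corner follows from that choice.

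The 2 kinds of library share no sample, so they give the comparison once each. Among the 9947 genes that averaged 5 CPM or more in TLR2 or in OVA, 99 were lower by at least 1 on the log2 scale among the middle libraries and 251 among the others. Both sets shared 41 genes, which is 41.4% of the first and 16.3% of the second, and 11 of the 41 were type I interferon genes of the list. On the higher side 56 genes were shared, which is 35.2% of 159 and 54.9% of 102. Across these genes, which are not independent, Pearson's r of the log2 fold changes was 0.26 and Spearman's rho 0.33.

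The 24 h libraries and the TLR7 libraries put the 72 h values in context. The comparisons with OVA at 72 h share the OVA libraries, and 2 of the 4 OVA libraries at 24 h were middle libraries, so the values stand side by side only. The type I interferon median was -0.89 for TLR2 at 72 h, -1.14 for TLR7 at 72 h and -0.69 for TLR2 at 24 h. Pdcd1 had log2 fold changes of -1.17, -2.06 and -0.48 in the same order, and Ifng 2.40, 0.35 and 1.97. For the G2/M list they were -0.76, -0.21 and -0.11. The difference of the TLR2 effect between 72 h and 24 h was tested directly, and 0 genes passed, which is 0% of 14560 (919 at an unadjusted p under 0.05 in edgeR, and 2 calls in DESeq2).

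TLR2 against TLR7 at 72 h gave 699 genes past the adjusted p of 0.05 in edgeR, 574 higher in TLR2 and 125 lower, or 4.8% of those tested. All 4 TLR7 libraries were of the clear 72 h kind. Without the 8 middle libraries only TLR2 replicate 2 was left in its group. A count of genes passing in that fit cannot show whether the calls follow the kind of library. Il2, the T cell growth factor, was high in the middle libraries of TLR2 and OVA at 72 h. It had 17.2, 0.230, 45.7 and 112 CPM in TLR2 replicates 1 to 4, against 0.0826 to 0.359 CPM in the TLR7 libraries, and was at 66.3 CPM in the middle library of OVA at 72 h. Leaving out TLR7 replicate 2 or replicate 4 left 0 genes past the adjusted p of 0.05, and leaving out TLR2 replicate 1 left 1.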

How the data were processed

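Per the file headers and values, the authors deposited 1 table of expected counts per library, with 48526 genes; of the values above 0, 28.7% hold a decimal part. Per the submitters' processing notes, STAR, RSEM and edgeR were used on GRCm38; the sources used here give neither their versions and roles nor the strand setting, so overlapping and antisense genes are uncertain. Expected counts were rounded. edgeR 4.0.16 (R 4.3.3) kept 14560 genes (filterByExpr, minimum count 10, minimum total 15), with TMM scaling, 1 model of all 24 libraries with a term per group (18 residual degrees of freedom), quasi-likelihood F tests and Benjamini-Hochberg adjustment over all genes tested. The common biological coefficient of variation was 0.32. CPM are the deposited counts divided by TMM-scaled totals. The range of scores on the first principal component was cut into 3 equal parts, and libraries in the central one were called middle libraries.

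Members and gene lists were chosen with earlier results of these data known. The genes named are, in each direction, the 12 of smallest p with no overlap and at least 5 CPM, the 8 with the largest difference in both kinds of library, up to 4 per list, and Pdcd1; Tlr2, Cd8a, Ifi204, Lyz2, Pecam1 and the genes whose promoters are printed were added for their role or after their values were seen; some genes are not reported here. Summed markers were compared by an exact permutation test. Positions come from GENCODE M21 and promoters from RefSeq. The fits were tested on simulated data. Alternatives were DESeq2 1.42.0, its scaling, no filter, a replicate block, a fit on the groups compared, a term for middle libraries, fits within each kind, and leaving out libraries; 2 of them, without OVA 72 h replicate 3 and the 8 middle libraries and the mean of both kinds, were chosen after seeing the data.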

Additional observations from a re-analysis of the deposited data

Results flagged for a closer look

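Each level of the genes and marker sums looked at was compared within its own group of 4 libraries for 1 library far from the other 3, which chance gives in about 5% of groups. Of 174 such values, 19 stood apart, 7 of them in OVA 72 h replicate 3 and 6 in TLR2 72 h replicate 2.

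TLR2 72 h replicate 2, the only library of its group that was not a middle library, had a score of -87.8 on the first principal component, against -13.1 to -8.76 in the other TLR2 libraries. It was the lowest of its group in Polr1b, a subunit of RNA polymerase I (55.3 CPM, against 161 to 182 CPM), and in the summed plasma cell markers (37.0 CPM, against 165 to 180 CPM). It was the highest in Cxcr6 (40.1 CPM), in Emp1, an epithelial membrane protein (85.0 CPM), and in the summed NK cell markers (47.4 CPM). Most of that NK cell sum was Gzma, a granzyme, at 36.6 CPM against 10.7 to 14.9 CPM in the other TLR2 libraries. The sum therefore largely follows 1 gene.

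OVA 72 h replicate 3 was the highest of its group in Txnip (914 CPM), Klf2 (344 CPM) and S1pr1 (565 CPM). It was also the highest in the summed macrophage and monocyte markers (149 CPM), neutrophil markers (46.1 CPM), MHC class II and CD74 (330 CPM) and stromal and endothelial markers (134 CPM).

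Of the other OVA libraries, replicate 2 was the highest in Ifi27l2a (291 CPM) and Gbp10 (82.9 CPM). Replicate 1 was the highest in Il21 (6.06 CPM) and Lilrb4a, an inhibitory receptor (26.5 CPM), and replicate 4 in Calr, the chaperone calreticulin (832 CPM). Pdcd1 in TLR2 replicate 1, at 104 CPM, was above the 60.0 to 67.5 CPM of the other TLR2 libraries and below every OVA library.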

How the results depend on the processing

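For TLR2 against OVA at 72 h, DESeq2 called 82 genes, the fit on only these groups 4 (Igfbp7, Ccr6, Ifi27l2a and BC147527), and the fit with a replicate block 1 (Slc19a2). Deviations of equally numbered TLR2 and OVA libraries from their group means had correlations of -0.31, 0.50, -0.005 and 0.40. These cannot tell whether the numbers pair the libraries, since the deviations also carry the kind of library. The Y-linked Eif2s3y had 23.0, 80.1, 41.4 and 59.7 CPM in TLR2 replicates 1 to 4, against 17.6, 84.3, 36.9 and 52.5 CPM in OVA. Its order was thus the same in both groups, as for Kdm5d and Uty but not Ddx3y. Whether the numbers mark shared mice was not tested. Leaving out 1 library gave 0 to 555 calls: 555 without OVA replicate 4 (461 higher), 5 without OVA replicate 1 (among them Il21 and Gm13717 higher, Cyth3 and Ift80 lower) and 0 for each of the other 6. OVA replicate 4 is the only middle OVA library. Without it, middle TLR2 libraries stand against no middle OVA library, so treatment and kind of library cannot be told apart. The higher calls of that fit included Gnl3, Ung and Il2, which were high in the middle libraries of both treatments. The scaling of DESeq2, no filter, a term for middle libraries, the fits within each kind, the mean of both kinds and the fits without the middle libraries gave 0. For the difference between times DESeq2 called 2 genes and each other alternative 0. For TLR2 against TLR7 at 72 h, the 699 calls became 1512 in DESeq2, 3302 in the fit on only the groups compared, 0 with a term for middle libraries, and 0 to 1667 when 1 library was left out. The fits without the middle libraries left 1 TLR2 library, so their counts of calls are not set against the 699. The summed T cell receptor genes differed by -1277 CPM under the scaling of DESeq2, with an exact p of 0.0571.

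Of the 72 genes looked at under up to 19 alternatives, 69 kept their direction. Klf2 reversed to 0.072 within the middle libraries and 0.57 without these and OVA replicate 3, and ran from -3.49 to 0.084 when 1 library was left out, with the positive value without OVA replicate 3. S1pr1 reversed to 1.05 and 0.72, and ran from -2.32 to 0.42. Cxcl10 reversed to -0.77 within the other libraries, -0.74 without the middle libraries and -0.41 without these and OVA replicate 3. Medians of the gene lists moved by more than the spread between libraries in 79 of 741 cases.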

Other observations

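Among the genes named for a difference in both kinds of library, 4 besides Il21 were high in every TLR2 library at 72 h and in OVA replicate 1, but not in OVA replicates 2 to 4. Tnfrsf8, the activation marker CD30, had 37.3, 122, 75.8 and 51.1 CPM in TLR2 replicates 1 to 4, against 366, 2.96, 2.78 and 2.71 CPM in OVA replicates 1 to 4. Il10, an anti-inflammatory cytokine, had 2.08, 8.38, 7.32 and 3.91 CPM, against 45.1, 0.0845, 0.0910 and 0.199 CPM. Cdh17, a cadherin, had 4.74 to 17.9 CPM, against 29.8 CPM in OVA replicate 1 and 0.0845 to 0.364 CPM in the others. Ermn, a cytoskeletal protein, had 26.2 to 70.2 CPM, against 84.8 CPM and 0.865 to 2.66 CPM. The library nearest to OVA replicate 1 over all genes was TLR7 replicate 3 at 72 h, at a root-mean-square difference of 0.23 in log2 CPM. These genes were picked for a difference in mean log2 CPM in both kinds of library, so the contrast is a description. In the edgeR fit, the log2 fold change of TLR2 over OVA among the others was -0.02 for Tnfrsf8 and -0.85 for Il10, against 4.33 and 4.43 among the middle libraries.

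Killer lectin receptors of CD8 T cells gave another pattern. Klrk1, which encodes NKG2D, had 144, 249, 114 and 142 CPM with TLR2, against 305, 502, 207 and 241 CPM with OVA, so TLR2 replicate 2 exceeded OVA replicates 3 and 4. Klrd1, the CD94 chain, had 58.5, 143, 50.0 and 50.4 CPM, against 100, 170, 130 and 71.6 CPM. Of the 10 genes of the list tested, 9 had a negative log2 fold change and 0 reached an unadjusted p under 0.05. The median was -0.28 over all 8 libraries, 0.01 among the middle libraries and -0.16 among the others, and 2 of the 10 were negative in both kinds.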
